A study of Mus musculus with 30 samples.

Results

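The genes described here are 9 genes listed as writers, erasers or readers of DNA methylation. They are the methyltransferases Dnmt1, Dnmt3a and Dnmt3b and the dioxygenases Tet1, Tet2 and Tet3. With them are Mbd2 and Mbd5 of the methyl-CpG binding family, and Uhrf1, which recruits Dnmt1. The 9 genes were taken by symbol from a whole-brain RNA-Seq table of 19737 genes. All 9 were in it and passed the filter on low values in each comparison. The table holds 30 libraries, one for each male C57BL/6N mouse, in 6 groups of 5. P10-WT and P10-HT are untreated wild-type (WT) and Arid1b+/– (HT) mice at postnatal day 10 (P10). WT-Veh, HT-Veh, WT-Flx and HT-Flx are mice at P120 whose dams drank 0.2% saccharin water from P3 to P21, without (Veh) or with (Flx) fluoxetine at 0.1 mg/ml, so that the pups received the drug, a serotonin-reuptake inhibitor, in the milk. The HT mice carry 1 constitutive mutant allele of Arid1b, made with CRISPR/Cas9 at exon 5, so that every cell is heterozygous, and their WT controls carry no engineered allele. Because the P10 mice drank no saccharin and were collected as their own set, age cannot be told apart from vehicle exposure or from the set of libraries.

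In mammals, cytosine is methylated mostly at CpG dinucleotides. Dnmt3a and Dnmt3b place the mark on unmethylated DNA, and Dnmt1 copies it to the new strand after replication, guided by Uhrf1, which binds hemimethylated CpG. The TET enzymes oxidize 5-methylcytosine to 5-hydroxymethylcytosine and further products, which can lead to its removal. Mbd2 binds methylated CpG and is part of a repressive NuRD complex, whereas Mbd5 has a methyl-CpG binding-like domain and is a gene linked to intellectual disability. In the brain, Dnmt3a is known for the non-CpG methylation that neurons gain after birth. No methylation was measured here, and the values concern RNA only.

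The members' own start sites were mostly CpG-rich. RefSeq (GRCm38.p6) gave 14 start sites for 8 of the 9 members, each as a window from 250 bases before to 50 bases after the start, and 12 of the 14 held more CpGs than the median of 7 over 32851 such windows. The windows of Uhrf1, Dnmt3a, Tet1 and Tet3 are shown because RNA of these genes was lower at P120 than at P10 in both genotypes with no overlap between libraries, and that of Dnmt1 because it is the partner of Uhrf1. For each, the listed start with the most CpGs was taken, a choice made after the values were seen. Each sequence reads 5′ to 3′ on the strand of the gene, and capitals mark CpG. The windows are chr17:56304063-56304362 (plus strand, 33 CpGs), chr9:20952574-20952873 (minus strand, 33 CpGs), chr12:3806910-3807209 (plus strand, 47 CpGs), chr10:62887275-62887574 (minus strand, 17 CpGs) and chr6:83441629-83441928 (minus strand, 22 CpGs).
Uhrf1: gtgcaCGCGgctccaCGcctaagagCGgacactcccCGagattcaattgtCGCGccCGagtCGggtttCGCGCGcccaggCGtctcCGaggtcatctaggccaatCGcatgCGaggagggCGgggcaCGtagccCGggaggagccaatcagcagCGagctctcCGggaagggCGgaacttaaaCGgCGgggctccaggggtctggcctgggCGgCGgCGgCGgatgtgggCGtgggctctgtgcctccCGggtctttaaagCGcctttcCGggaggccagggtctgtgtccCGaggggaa
Dnmt1: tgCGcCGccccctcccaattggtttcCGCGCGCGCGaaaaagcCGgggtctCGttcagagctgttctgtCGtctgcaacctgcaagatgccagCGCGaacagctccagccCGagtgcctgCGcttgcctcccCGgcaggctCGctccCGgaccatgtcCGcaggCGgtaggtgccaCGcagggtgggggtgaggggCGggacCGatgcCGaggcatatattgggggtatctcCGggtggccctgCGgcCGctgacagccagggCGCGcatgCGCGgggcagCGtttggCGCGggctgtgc
Dnmt3a: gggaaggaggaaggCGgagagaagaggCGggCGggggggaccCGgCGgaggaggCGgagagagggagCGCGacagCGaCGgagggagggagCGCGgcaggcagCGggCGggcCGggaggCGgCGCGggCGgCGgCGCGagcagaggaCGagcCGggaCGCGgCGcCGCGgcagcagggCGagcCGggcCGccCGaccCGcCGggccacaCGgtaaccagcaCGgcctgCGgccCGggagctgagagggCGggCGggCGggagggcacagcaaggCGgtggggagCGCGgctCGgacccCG
Tet1: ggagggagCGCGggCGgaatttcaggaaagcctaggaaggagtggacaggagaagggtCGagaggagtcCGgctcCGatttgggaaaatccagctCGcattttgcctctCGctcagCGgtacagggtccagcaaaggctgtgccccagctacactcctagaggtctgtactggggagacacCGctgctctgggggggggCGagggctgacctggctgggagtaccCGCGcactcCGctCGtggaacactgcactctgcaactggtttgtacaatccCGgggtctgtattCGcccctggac
Tet3: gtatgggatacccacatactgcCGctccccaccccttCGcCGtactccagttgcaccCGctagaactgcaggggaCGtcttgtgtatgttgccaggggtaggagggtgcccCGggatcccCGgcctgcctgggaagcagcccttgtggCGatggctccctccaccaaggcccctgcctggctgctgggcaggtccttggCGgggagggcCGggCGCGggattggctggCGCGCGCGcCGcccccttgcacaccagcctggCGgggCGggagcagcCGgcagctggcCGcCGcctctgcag

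Both strands of each window were searched for letters of the E2F site, which is known from genes of DNA replication, spelled as TTTCCCGC, TTTCGCGC, TTTGCCGC or TTTGGCGC. Such letters were in 2 of the 14 windows, against 2.26% of all windows. These were the windows of Uhrf1 and Dnmt1 printed above, with 1 and 2 matches. The Uhrf1 match starts 185 bases before the printed start site, and the Dnmt1 matches lie 219 bases before and 33 bases after the printed Dnmt1 start. The other starts listed for these genes lie upstream of the printed windows. Their own windows are chr17:56303087-56303386, chr9:20952930-20953229 and chr9:20959839-20960138. All these E2F matches are therefore downstream of the other listed starts. Which start was in use was not tested. The GC box GGGCGG was in 11 of the 14 windows (35.7% of all windows) and the CCAAT box in 5 (37.4% of all windows). None of these E2F matches shared a base with a GC box or a CCAAT box. Each E2F spelling and the GC box hold a CpG, and 12 of the 14 windows were above the CpG median. The shares over all windows are therefore not from windows of like CpG content. The Dnmt3a windows chr12:3806730-3807029 and chr12:3806910-3807209 also share bases. These are matches of letters, and no binding was measured.

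The deposited values are normalized counts per gene that are not whole numbers, so the read depth behind them is unknown and the spread between mice is the only error given. Their sum ran from 31578614 to 32445810 per library at P10 and from 32484635 to 41801037 at P120, with HT-Flx at 37083545 to 41522113 and WT-Flx at 32484635 to 33588499. Arid1b, the mutated gene, was at 2162 to 2334 in P10-HT and 3164 to 3309 in P10-WT. Among treated mice at P120, HT-Flx ran from 2164 to 2616 and WT-Flx from 2961 to 3392. One vehicle library of each genotype went against its label, since replicate 2 of HT-Veh, at 3361, lay among the WT-Flx values and replicate 2 of WT-Veh, at 2320, among those of HT-Flx. HT-Veh and WT-Veh were compared in replicates 1, 3, 4 and 5, the libraries for which the study tabulates values in this comparison, although its legends count all mice of both groups. All other values of the vehicle groups include these 2 libraries, except in the interaction of genotype with age, which leaves them out. The calls for age, fluoxetine and the genotype by fluoxetine interaction are also given without them, as are the order of levels in WT-Veh, the age and interaction counts of the gene lists and the correlations, for which this was chosen after the values were seen. Libraries also differed in base composition. The GC tilt, the mean log2 deviation of the GC-richest 10% of genes minus that of the GC-poorest 10%, ran from 0.82 to 1.60 in HT-Flx, −0.55 to −0.35 in WT-Flx, −0.52 to 1.11 in HT-Veh, −0.26 to 0.73 in WT-Veh, −0.88 to −0.46 in P10-HT and −0.50 to −0.44 in P10-WT. Whether this tilt is technical was not tested. Some values below are also given after a correction of each library for the GC content and length of transcripts, which removes any difference that follows these properties, whatever its source. Markers of neurons, astrocytes, oligodendrocytes, microglia and endothelial cells were present in every group, and none was at 0 in all libraries. In such bulk tissue, fewer cells of a type and less RNA per cell cannot be told apart.

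Per length, Dnmt3a had the highest level of the 9 at P10, and in the P120 vehicle groups its range overlapped those of Dnmt1 and Mbd2. Levels between genes are given as the normalized value per kb of the longest annotated coding transcript, which is approximate because the isoform mix is not known. In P10-WT these means were 1441 for Dnmt3a, 498 for Dnmt1, 456 for Tet3, 425 for Mbd2, 217 for Mbd5, 181 for Tet1, 167 for Tet2, 113 for Uhrf1 and 15.0 for Dnmt3b. Library ranges of neighbours in this order overlapped for Dnmt1 and Tet3, for Tet3 and Mbd2, and for Tet1 and Tet2, and not for the other 5 pairs. In WT-Veh the order of the means per kb was Mbd2 (469), Dnmt3a (468), Dnmt1 (468), Tet3 (256), Mbd5 (198), Tet2 (132), Tet1 (33.9), Uhrf1 (11.6) and Dnmt3b (8.45). There, the ranges of Mbd2, Dnmt3a and Dnmt1 overlapped, as did those of Mbd5 and Tet2 and those of Uhrf1 and Dnmt3b. Without replicate 2 of WT-Veh, the first 3 were Dnmt3a (473), Dnmt1 (470) and Mbd2 (469) per kb, still with overlapping ranges, and the order of the other 6 was as above. Dnmt3b, the methyltransferase best known from the early embryo, had the lowest mean of the 9 in all 6 groups, also without replicate 2 of both vehicle groups.

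**Figure D1:**
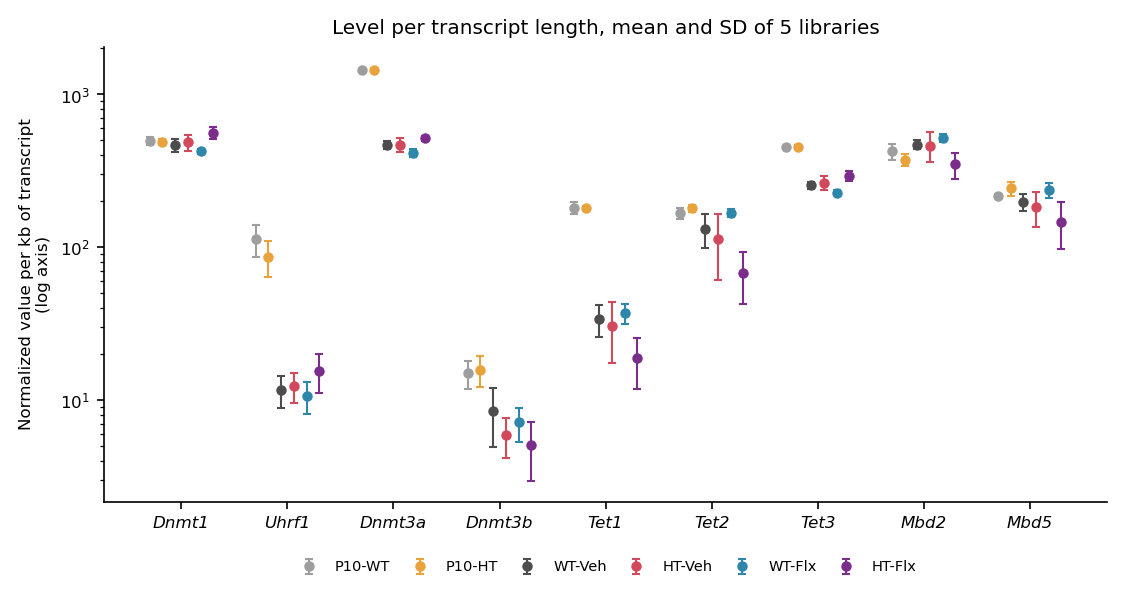
Normalized value per kb of the longest coding transcript (log axis) for the 9 genes, as the mean and SD of 5 libraries in each of the 6 groups. Dnmt3a stands at 1441 in P10-WT and 468 in WT-Veh, Tet1 and Uhrf1 lie lower at P120 than at P10, and Dnmt3b is at the bottom in every group.

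The first comparison set P120 against P10 within each genotype, to follow the genes from the pup to the adult brain. Of the 9 genes, 5 were lower and 0 higher in WT-Veh than in P10-WT, and 7 were lower and 0 higher in HT-Veh than in P10-HT (limma on log2 of value + 1, Benjamini-Hochberg adjusted p under 0.05). Among all genes tested, 58.3% passed in WT (28.9% higher and 29.4% lower) and 51.1% in HT (25.8% higher and 25.3% lower), so a call as such was common and the sizes are described below. The median log2 change of the 9 genes was −0.83 in WT and −0.79 in HT, against −0.01 and −0.02 over all genes tested. Exact p-values below come from two-sided permutation tests, for which 0.00794 is the smallest that 5 mice against 5 allow. Each p is taken from the spread between mice within the groups, and no spread between sets of libraries enters it.

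In the maintenance pair, Uhrf1 fell with age in both genotypes and Dnmt1 did not pass the test. Uhrf1 (chromosome 17, 56303321 to 56323486, plus strand, GRCm38) was at 463, 413, 406, 504 and 246 in replicates 1 to 5 of P10-WT and at 42.1, 58.4, 33.6, 38.7 and 35.5 in WT-Veh. The groups did not overlap, and the lowest P10-WT library lay far from the other 4. The log2 change was −3.24 (standard error (SE) 0.2, adjusted p = 3.75e-08, limma), which is 9.46-fold lower on the scale of value + 1. In HT mice it was at 237, 282, 324, 445 and 263 in P10-HT and 52.2, 46.8, 46.8, 27.3 and 48.2 in HT-Veh. Again no library overlapped, and the log2 change was −2.78 (SE 0.21, adjusted p = 4.87e-07, limma). Dnmt1 (chromosome 9, 20907209 to 20959888, minus strand) was at 2922 ± 170.1 in P10-WT and 2745 ± 273 in WT-Veh (SD, n = 5), and at 2891 ± 111 and 2857 ± 350.0 in the HT groups. Its log2 changes of −0.09 (95% confidence interval −0.26 to 0.07) and −0.02 (−0.25 to 0.20) did not pass (adjusted p = 0.31 and 0.858, limma), and the groups overlapped. After the correction for GC content and length, Dnmt1 passed as lower, at −0.23 in WT (adjusted p = 0.0091, limma) and −0.28 in HT (adjusted p = 0.00932, limma).

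Of the de novo methyltransferases, Dnmt3a showed the tightest values of the 9 genes in P10-WT. It lies on chromosome 12 (3806007 to 3914443, plus strand) and was at 13923, 14118, 14029, 13896 and 13832 in P10-WT, with a coefficient of variation of 0.81%. In WT-Veh it was at 4260.4, 4329, 5009, 4590.1 and 4483. Every WT-Veh library was below every P10-WT library, and the log2 change was −1.62 (SE 0.056, adjusted p = 6.25e-10, limma). In HT mice it was at 13243, 14384, 14036, 14505 and 13864 in P10-HT and 5083, 5038, 3969, 4276 and 4341 in HT-Veh, also without overlap, a log2 change of −1.63 (SE 0.1, adjusted p = 1.24e-07, limma). The antisense gene Dnmt3aos overlaps exons of Dnmt3a and strand use in the counting is not given in the sources used here, so their reads cannot be told apart. Dnmt3b (chromosome 2, 153649450 to 153687730, plus strand) was much less abundant, at 49.0, 79.3, 76.1, 64.8 and 54.0 in P10-WT and 52.5, 51.0, 35.0, 18.8 and 25.3 in WT-Veh. Replicates 1 and 2 of WT-Veh lay at the lower end of the P10-WT range, and the log2 change was −0.88 (adjusted p = 0.0141, limma; exact p = 0.0317). In HT mice Dnmt3b was at 84.6, 76.9, 43.8, 72.0 and 63.1 in P10-HT and 22.4, 18.4, 32.8, 34.0 and 19.8 in HT-Veh, with no overlap and a log2 change of −1.39 (adjusted p = 0.000415, limma).

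The 3 TET enzymes differed in the size of their change. Tet1 (chromosome 10, 62804570 to 62908996, minus strand) went from 2443, 2850.5, 2653, 2288 and 2770.4 in P10-WT to 571, 356, 369, 536 and 606 in WT-Veh. In HT mice it was at 2562, 2461, 2679.8, 2664 and 2617 in P10-HT and 183, 382, 395, 567 and 681 in HT-Veh. The log2 change was −2.44 in WT (SE 0.15, adjusted p = 2.9e-08, limma) and −2.68 in HT (SE 0.27, adjusted p = 5.07e-06, limma), with no overlap in either genotype. Tet3 (chromosome 6, 83362373 to 83459084, minus strand), which had the highest level per kb of the 3 TET genes in every group, was at 4939, 5004, 4854, 4984 and 5077 in P10-WT and 2663, 2880.0, 3005, 2679 and 2728 in WT-Veh. In HT it went from 4951 ± 115 to 2885 ± 317 (SD, n = 5). Its log2 changes were −0.83 (SE 0.055) and −0.79 (SE 0.1), and its groups did not overlap (adjusted p = 6.07e-08 and 3.95e-05, limma). Tet2 (chromosome 3, 133463679 to 133545139, minus strand) was at 1451, 1413, 1505, 1753 and 1549 in P10-WT and 1529.7, 1374, 799, 975 and 1393 in WT-Veh, and 1 WT-Veh library lay within the P10-WT range. Its log2 change of −0.38 in WT did not pass (adjusted p = 0.0536, limma), whereas that of −0.78 in HT did (adjusted p = 0.0171, limma), with overlapping groups. The age change of Tet2 was not shown to differ between genotypes. The interaction was −0.31 without replicate 2 of both vehicle groups (adjusted p = 0.92, limma) and −0.40 with them (adjusted p = 0.877, limma). The antisense gene Gm42567 overlaps exons of Tet2, with the same limit as for Dnmt3a.

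In the methyl-CpG binding family, Mbd2 did not pass in either genotype, and Mbd5 passed as lower in HT. Mbd2 was at 829.5 ± 102 in P10-WT and 916 ± 61.5 in WT-Veh (SD, n = 5), a log2 change of 0.15 (−0.05 to 0.34), and its change in HT was 0.29 (−0.04 to 0.61). Neither passed (adjusted p = 0.171 and 0.126, limma). Mbd5 (chromosome 2, 48949508 to 49325405, plus strand) was at 1853 ± 60.3 and 1688 ± 207 in WT (SD, n = 5), a change of −0.14 that did not pass (adjusted p = 0.158, limma). In HT it went from 2074 ± 212 to 1557 ± 394, at a log2 change of −0.44 (adjusted p = 0.0325, limma), with overlapping groups. Leaving out 1 library ended this call for each of P10-HT replicates 1, 2, 4 and 5 and HT-Veh replicates 1, 2 and 3, and Mbd2 passed as higher without HT-Veh replicate 1 in HT (0.39) or without P10-WT replicate 5 in WT (0.21). Orc4 lies on the other strand and shares exon positions with Mbd5, so the same limit on strand applies.

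**Figure D2:**
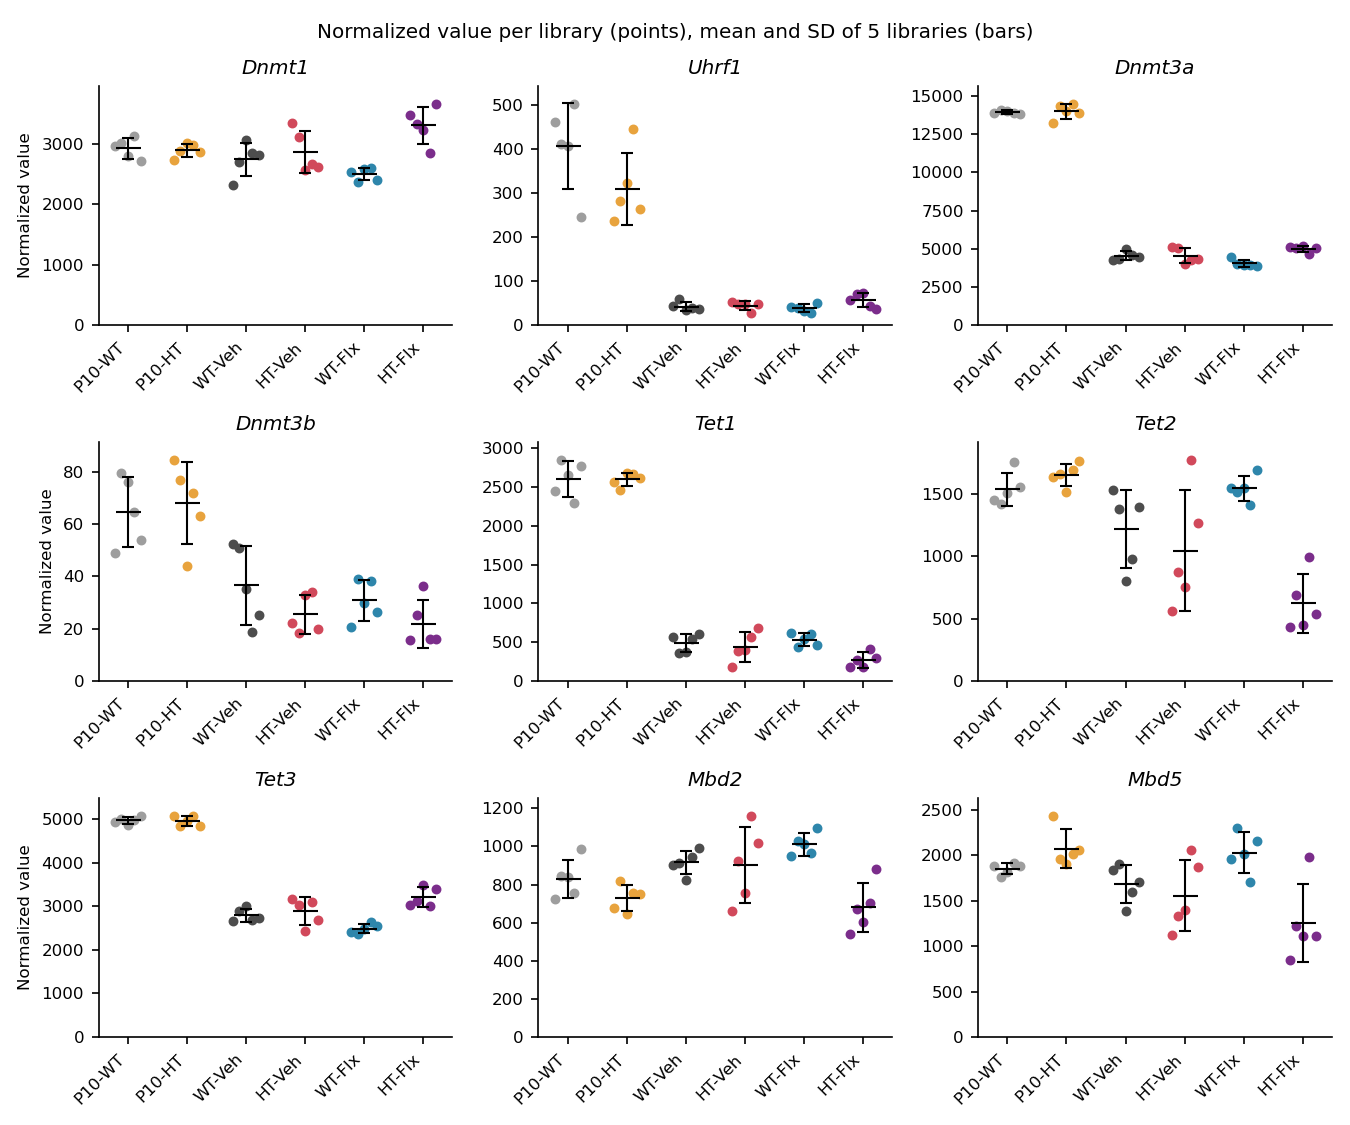
Normalized value of each of the 9 genes in each of the 30 libraries (points, one mouse each, replicates 1 to 5 from left to right), with the mean and SD of each group; each vertical axis starts at 0. Uhrf1, Dnmt3a, Tet1 and Tet3 show no overlap between P10 and P120 vehicle libraries, and Tet2 spreads from 559 to 1771 in HT-Veh.

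The age changes were also read without the 2 libraries that go against their labels and with the correction for GC content and length. The mean GC tilt was 0.11 in WT-Veh and −0.47 in P10-WT, and 0.28 in HT-Veh and −0.59 in P10-HT. The WT ranges did not overlap, at −0.26 to 0.73 in WT-Veh and −0.50 to −0.44 in P10-WT, whereas the HT ranges did. WT-Flx, also at P120, had a mean of −0.45. Without the 2 libraries, Uhrf1, Tet1, Dnmt3a, Dnmt3b and Tet3 all passed as lower, at −3.37, −2.34, −1.61, −1.03 and −0.85 in WT and −2.81, −2.66, −1.67, −1.29 and −0.81 in HT. Tet2 then also passed in WT (−0.43, adjusted p = 0.0437, limma), and Mbd5 no longer passed in HT (−0.40, adjusted p = 0.0788, limma). With the correction, these 5 genes were lower at −3.30, −2.03, −1.64, −0.93 and −0.85 in WT and −2.94, −2.04, −1.66, −1.52 and −0.82 in HT, and passed in each case. The Tet2 change in HT was then −0.30 (adjusted p = 0.0774, limma) and that of Mbd5 0.03 (adjusted p = 0.754, limma), so neither passed. The part of the GC tilt in the age changes was not tested.

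**Figure D3:**
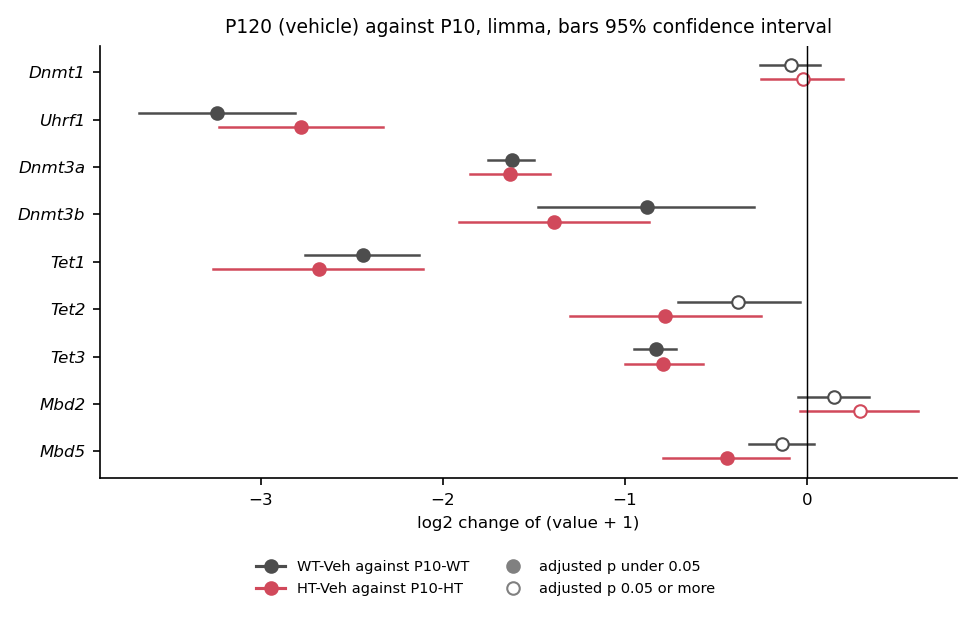
Log2 change of value + 1 between P120 vehicle and P10 libraries for the 9 genes, in WT (dark) and HT (red), with 95% confidence intervals from limma; filled points have an adjusted p under 0.05. Uhrf1 (−3.24 and −2.78), Tet1 (−2.44 and −2.68) and Dnmt3a (−1.62 and −1.63) lie farthest from 0, and Dnmt1 and Mbd2 are open points near it.

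Among 37 other genes of DNA methylation that are in the table, 15 were higher and 11 lower in WT and 11 higher and 12 lower in HT, with median log2 changes of 0.08 and 0.13. Over all genes tested, 58.3% passed in WT and 51.1% in HT, with medians of −0.01 and −0.02. Without the 2 libraries that go against their labels the counts were 13 higher and 10 lower in WT and 10 higher and 12 lower in HT, and with the correction 18 and 12 in WT and 17 and 12 in HT. Those lower included Zfp57, a zinc finger protein that protects imprinted methylation, at 1391 ± 183 in P10-WT and 309.9 ± 48.4 in WT-Veh (SD, n = 5, log2 change −2.17, adjusted p = 1.6e-08, limma). Hells, a remodeler needed for methylation of repeats, changed by −1.62 and its cofactor Cdca7 by −1.49, with Cdca7l at −1.50. Idh1, which makes the TET cosubstrate 2-oxoglutarate, changed by −1.59, and Tdg, the glycosylase that excises oxidized methylcytosine, by −1.01. The methyl-CpG reader Zbtb4 was higher at P120, by 1.35, as was Gadd45b, by 1.00. In HT the same 8 genes except Tdg led by size, with Cxxc4 (−1.03) in its place, and the changes were −2.63 for Zfp57, −1.79 for Cdca7, −1.36 for Hells and 1.43 for Zbtb4. Hells was at −1.16 in WT and −0.71 in HT with the correction, and at −1.71 and −1.24 without the 2 libraries. Each of the 8 genes named in each genotype had an adjusted p under 0.05 (limma) without them.

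Markers of dividing and immature cells moved with age as well. Of 20 proliferation genes, 19 were lower in WT and 16 in HT, with a median log2 change of −2.38 and −2.10, and their summed value ran from 7773 to 11077 in P10-WT and 3377 to 3745 in WT-Veh. Of 6 markers of neural progenitors and immature neurons, 5 were lower in each genotype, and their sum ran from 14823 to 18237 in P10-WT and 3718 to 5492 in WT-Veh (3934 to 5492 without replicate 2). All 4 markers of oligodendrocyte precursors were lower in WT and 2 in HT, while 3 and 4 of 6 oligodendrocyte markers were higher. Endothelial markers were 1 higher and 3 lower of 4 in WT and 1 and 1 in HT, and microglia markers 3 higher and 1 lower of 6 in WT and 3 and 0 in HT. Of 5 red blood cell genes, 2 were lower in WT and 0 in HT. Neuron markers were 4 higher and 3 lower of 9 in WT and 4 and 4 in HT, and astrocyte markers 1 higher and 1 lower of 6 in both. Without the 2 libraries that go against their labels, the proliferation counts (19 and 16 lower), the progenitor counts (5 and 5 lower), those of oligodendrocyte precursors and those of microglia were as before. Endothelial markers then were 1 higher and 2 lower in HT, red blood cell genes 1 lower in WT, oligodendrocyte markers 2 higher in WT, neuron markers 3 and 3 in WT and 4 and 3 in HT, and astrocyte markers 0 higher and 1 lower in both. The part of these cells in the changes of Uhrf1, Dnmt3a and the TET genes was not tested.

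The genotype comparisons asked whether the genes differ between Arid1b+/– and WT mice without the drug. At P10, 0 of the 9 genes passed, against 0.0224% of all genes tested (4 genes, Arid1b among them), and 1 of the 9 had an unadjusted p under 0.05 in limma against 2249 of 17896 genes. That one was Mbd5, at 2437, 1959, 1900.2, 2013 and 2059.7 in P10-HT and 1883, 1765, 1818, 1913 and 1885 in P10-WT. Replicate 1 of P10-HT stood above all other P10 libraries, and the lowest P10-HT value lay just under the highest P10-WT value. The log2 difference was 0.16 (0.03 to 0.29, adjusted p = 0.348, limma; exact p = 0.0159). With the correction for GC content and length it was 0.10 (adjusted p = 0.436, limma). Replicate 1 of P10-HT also had the lowest GC tilt of the P10 libraries, at −0.88. The part of the tilt in the Mbd5 values was not tested. Intervals were narrow for the abundant genes, at −0.12 to 0.09 for Dnmt1, −0.07 to 0.08 for Dnmt3a, −0.12 to 0.13 for Tet1 and −0.08 to 0.06 for Tet3, and wide for Uhrf1 (−0.38, −0.80 to 0.03) and Dnmt3b (−0.35 to 0.48). The sum of red blood cell genes was 5258 to 8444 in P10-HT and 10377 to 13112 in P10-WT, and the proliferation sum was 7071 to 9561 and 7773 to 11077. Their part in the genotype values was not tested.

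At P120 without the drug, 0 of the 9 genes passed between 4 HT-Veh and 4 WT-Veh libraries, against 0% of all genes tested, and 0 of the 9 had an unadjusted p under 0.05 in limma (229 of 17784 genes did). Arid1b itself was at 2256 ± 215 and 3165 ± 90.0 (SD, n = 4) without overlap (exact p = 0.0286, the smallest that 4 mice against 4 allow). The 2 libraries left out are those whose Arid1b values go against their labels, so this lack of overlap was in part fixed beforehand. With them, HT-Veh ran from 1973 to 3361 and WT-Veh from 2320 to 3229. Arid1b had an adjusted p of 1.0 in limma, so a change of its size, −0.49 on the log2 scale, did not pass in this comparison. The intervals of the 9 genes ran from −0.36 to 0.25 for Dnmt3a and −0.28 to 0.34 for Tet3 to −0.96 to 0.55 for Tet2 and −1.10 to 0.46 for Tet1. With all 5 and 5 vehicle libraries under their labels the count was also 0. The HT-Veh libraries differed among themselves in base composition. Replicates 4 and 5, with a GC tilt of −0.52 and −0.41, had Tet2 at 1771 and 1263, while replicates 1, 2 and 3, with a tilt of 1.11, 0.59 and 0.63, had it at 559, 872 and 752. The difference of the genotype effect between ages (interaction, 18 libraries) passed for 0 of the 9 genes and 0% of all genes in limma, with 0 of the 9 and 613 of 17969 genes at an unadjusted p under 0.05. Its largest value among the 9 was 0.56 for Uhrf1 (−0.09 to 1.21, adjusted p = 0.92, limma), and that of Tet2 was −0.31 (−1.03 to 0.40).

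Early fluoxetine was then compared with vehicle within each genotype, to see whether treatment as a pup left a difference in the adult. The drug was given through the dams, and the labels do not give the litter of each mouse. The tests take mice as independent, and litter cannot be told apart from treatment. In HT mice, 0 of the 9 genes passed, as did 0% of all genes tested, and 2 of the 9 had an unadjusted p under 0.05 in limma (4082 of 17676 genes did). Tet2 was at 434, 689, 447, 995 and 538 in HT-Flx and 559, 872, 752, 1771 and 1263 in HT-Veh. The highest HT-Flx library lay above 3 of the 5 HT-Veh libraries, and the log2 difference was −0.70 (−1.35 to −0.05, adjusted p = 0.215, limma; exact p = 0.103). Mbd2 was at 541, 670.2, 603, 704 and 883 and 664, 924, 755, 1162 and 1017, also with overlap (−0.40, −0.78 to −0.02, adjusted p = 0.215, limma). Without the library labelled HT-Veh replicate 2, the differences were −0.74 for Tet2 and −0.39 for Mbd2, with an adjusted p of 0.264 for both (limma). The GC tilt was 0.82 to 1.60 in HT-Flx and −0.52 to 1.11 in HT-Veh. With the correction for GC content and length, Tet2 was at −0.34 (−0.70 to 0.03, adjusted p = 0.449, limma). Mbd2 was then at −0.68 (−1.23 to −0.14, adjusted p = 0.44, limma). The part of the tilt in these values was not tested. In a fit of all 30 libraries, which lends the spread of the P10 and WT groups to the HT ones, 4 of the 9 passed, namely Tet2, Mbd2, Tet1 and Dnmt1, with 5948 genes.

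In WT mice, 0 of the 9 genes and 0% of all genes passed between WT-Flx and WT-Veh, and 4 of the 9 had an unadjusted p under 0.05 in limma (4504 of 17865 genes did). Tet3 was at 2401, 2374, 2477, 2627 and 2545 in WT-Flx and 2663, 2880.0, 3005, 2679 and 2728 in WT-Veh, without overlap (−0.17, adjusted p = 0.137, limma; exact p = 0.00794). Dnmt3a was at 4037 ± 251 and 4534 ± 295 (SD, n = 5, −0.17, adjusted p = 0.156, limma). Tet2 and Mbd5 had differences of 0.38 and 0.27 (adjusted p = 0.162 and 0.145, limma), with overlap. Without the library labelled WT-Veh replicate 2 no member passed either, with −0.17 becoming −0.16 for Tet3 and 0.38 becoming 0.44 for Tet2. The GC tilt of these groups did not overlap either, at −0.55 to −0.35 in WT-Flx and −0.26 to 0.73 in WT-Veh. With the correction for GC content and length, Tet3 was at −0.07 (adjusted p = 0.642, limma). Dnmt3a was then at −0.07, Tet2 at 0.21 and Mbd5 at 0.10, and none of these 4 passed. The part of the tilt in these values was not tested. The fluoxetine and age comparisons share the vehicle libraries, so their values are not independent.

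The genotypes under treatment, HT-Flx against WT-Flx, gave the largest number of calls among the comparisons at P120. Of the 9 genes, 7 passed, 3 higher and 4 lower in HT-Flx, against 63.7% of all genes tested (33.1% higher and 30.5% lower), so the share of members called is near the background. Lower in HT-Flx were Tet2, at 434, 689, 447, 995 and 538 against 1548, 1516, 1548, 1406 and 1685 in WT-Flx (−1.38, SE 0.19, adjusted p = 8.15e-05, limma), and Tet1, at 177, 273, 182, 417 and 299 against 623, 434, 541, 602 and 463 (−1.04, SE 0.22, adjusted p = 0.00111, limma). Neither gene's groups overlapped. Mbd2 was at 541, 670.2, 603, 704 and 883 against 950.0, 1029.6, 1011, 966 and 1097, again without overlap (−0.59, SE 0.12, adjusted p = 0.000973, limma). Mbd5 was at 1256 ± 428 against 2030.1 ± 226 (SD, n = 5, −0.74, adjusted p = 0.00317, limma), and replicate 4 of HT-Flx, at 1981, overlapped WT-Flx. Dnmt1, Dnmt3a and Tet3 were higher in HT-Flx, with no overlap, although Dnmt1 took the opposite sign when GC content and length were corrected for. Dnmt1 was at 3466, 3328, 3224, 2837 and 3660.3 against 2526, 2367, 2585, 2597 and 2402 (0.40, adjusted p = 0.000919, limma). Dnmt3a was at 4998 ± 207 against 4037 ± 251 (SD, n = 5, 0.31, adjusted p = 0.00203, limma). Tet3 was at 3023, 3120.4, 3497, 2998 and 3397 against 2401, 2374, 2477, 2627 and 2545 (0.37, adjusted p = 0.000876, limma). Dnmt3b (−0.52, −1.13 to 0.08, adjusted p = 0.118, limma) and Uhrf1 (0.53, 0.02 to 1.04, adjusted p = 0.0652, limma) did not pass.

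The GC tilt separated these 2 groups completely, at 0.82 to 1.60 in HT-Flx and −0.55 to −0.35 in WT-Flx, and the longest transcripts of Tet1, Tet2 and Mbd5, with a GC content of 43.7%, 45.4% and 45.8%, are GC-poor beside those of the other 6, at 51.9% to 56.5%. With the correction for GC content and length, 35.9% of all genes passed, and 3 of the 9 members did. Tet2 was then lower at −0.71 (−0.95 to −0.46, adjusted p = 0.000722, limma), Mbd2, whose transcript is the GC-richest of the 9, at −1.13 (−1.47 to −0.79, adjusted p = 0.000335, limma), and Dnmt3b at −0.89 (−1.50 to −0.29, adjusted p = 0.0256, limma). The others did not pass, with Tet1 at −0.12, Mbd5 at −0.07, Tet3 at 0.11 and Dnmt3a at 0.06, and Dnmt1 at −0.08 (−0.25 to 0.09). Marker lists moved between these groups too. The astrocyte sum was 62745 to 97419 in HT-Flx and 103450 to 115718 in WT-Flx (2 of 6 markers higher, 4 lower), and the oligodendrocyte sum was 250439 to 279477 and 178474 to 236994 (3 of 6 higher, 1 lower). Neuron markers were 3 higher and 5 lower of 9, with sums that overlapped, and 0 of the 9 passed with the correction, which left 1 astrocyte marker higher and 2 lower and 3 oligodendrocyte markers higher and 1 lower. The sum of 4 markers of oligodendrocyte precursors was 9149 to 12477 in HT-Flx and 7511 to 8767 in WT-Flx (2 higher, 1 lower, and 0 and 2 with the correction). That of 6 microglia markers was 6083 to 9697 and 4832 to 6100 (3 higher, 1 lower, and 0 and 0 with the correction), and that of 5 red blood cell genes 8751 to 14347 and 6304 to 8904 (3 higher, and 1 with the correction). Of 4 endothelial markers 1 was higher, of 6 progenitor and immature neuron markers 1 was lower, and of 18 proliferation genes tested 4 were higher and 6 lower. The part of these cells and of the GC tilt in the values was not tested.

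**Figure D4:**
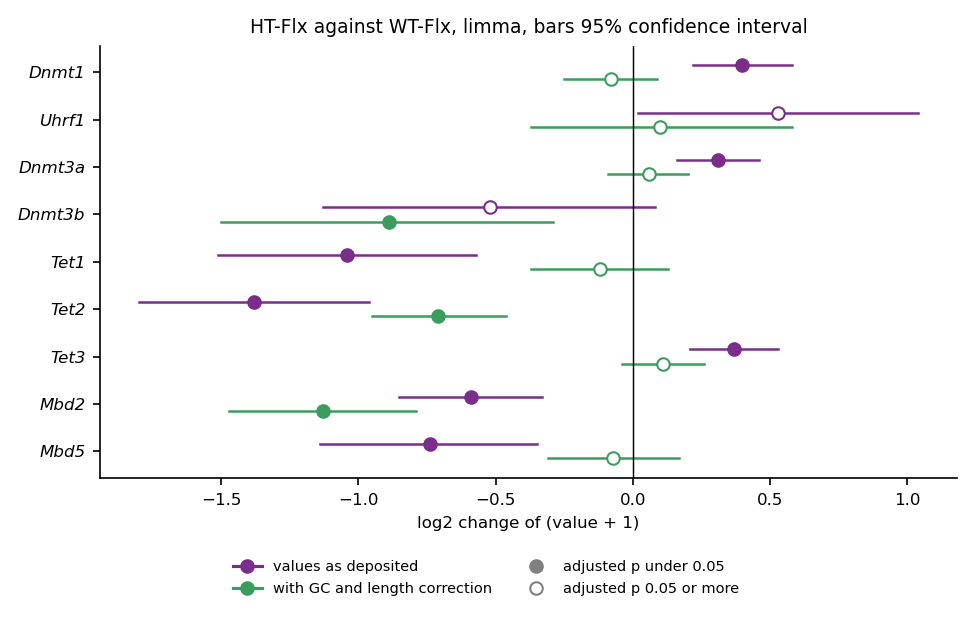
Log2 change of value + 1 between HT-Flx and WT-Flx for the 9 genes, from the values as deposited (purple) and after the correction for GC content and length (green), with 95% confidence intervals from limma; filled points have an adjusted p under 0.05. Tet2 and Mbd2 are filled in both, at −1.38 and −0.71 and at −0.59 and −1.13, while Dnmt1 goes from 0.40 to −0.08.

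**Figure D5:**
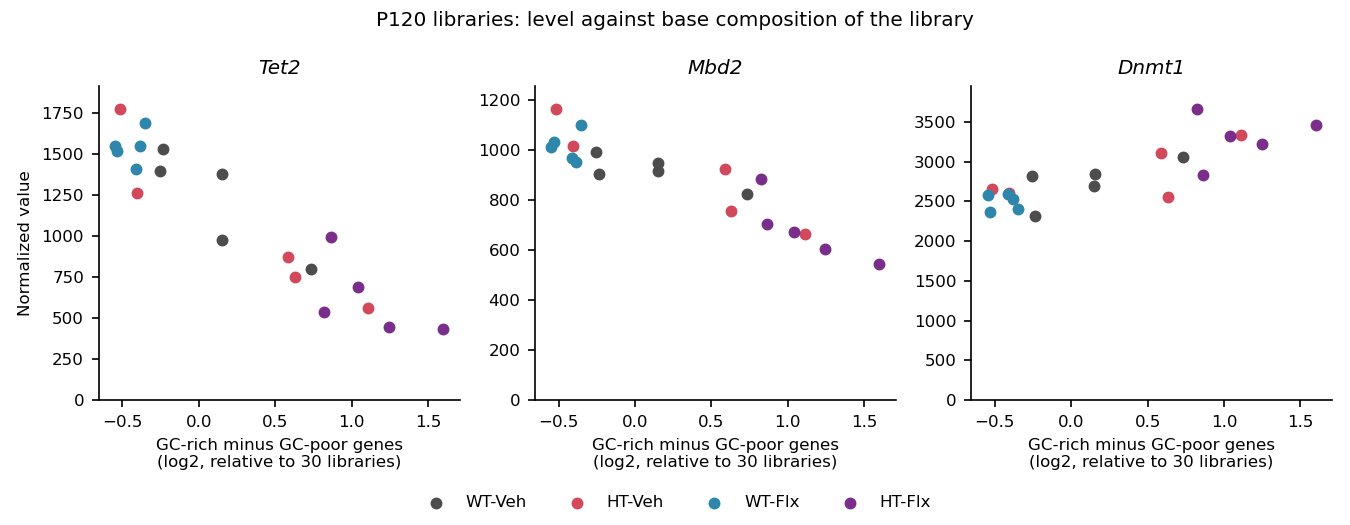
Normalized value of Tet2, Mbd2 and Dnmt1 in the 20 libraries at P120 against the GC tilt of the library (log2), coloured by group; the vertical axes start at 0. HT-Flx libraries lie at a tilt of 0.82 to 1.60 and WT-Flx at −0.55 to −0.35, and within HT-Veh the 2 libraries with a negative tilt have the highest Tet2 and Mbd2 values.

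Of the 37 other DNA methylation genes, 17 were higher and 14 lower in HT-Flx than in WT-Flx, and 6 and 7 with the correction. Over all genes tested, 63.7% passed as deposited and 35.9% with the correction. The largest differences were those of Zbtb33 (Kaiso, a methyl-CpG reader), at 338 ± 109 and 843 ± 74.1 (SD, n = 5, −1.38, adjusted p = 0.000104, limma), and Ogt, the O-GlcNAc transferase that binds TET proteins, at 5566 ± 1768 and 13089 ± 634 (−1.29, adjusted p = 6.12e-05, limma). With the correction they were −0.31 and −0.44. Hells (−1.05), Zbtb38 (−1.04) and Cxxc4 (−0.74) were also lower, and Cxxc5 (0.97), Trim28 (0.87) and the NuRD subunit Mbd3 (0.80) were higher. With the correction, Hells was at 0.03, Zbtb38 at −0.36, Cxxc4 at −0.19, Cxxc5 at 0.51, Trim28 at 0.12 and Mbd3 at 0.13.

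Whether fluoxetine changed the genes differently in the 2 genotypes was tested with an interaction term over the 20 libraries at P120. It passed for 3 of the 9 genes, 1 positive and 2 negative, against 27.3% of all genes (15.8% positive and 11.5% negative). The values were −1.08 for Tet2 (−1.85 to −0.32, adjusted p = 0.0395, limma), −0.54 for Mbd2 (−0.95 to −0.14, adjusted p = 0.0447, limma) and 0.32 for Tet3 (0.08 to 0.57, adjusted p = 0.0494, limma), each close to the threshold. Tet2 differed by −0.70 with fluoxetine in HT and by 0.38 in WT, Mbd2 by −0.40 and 0.14, and Tet3 by 0.16 and −0.17. Dnmt3a (0.31, adjusted p = 0.0532, limma) and Dnmt1 (0.34, adjusted p = 0.0607, limma) lay just beyond it. Without the 2 libraries that go against their labels, 0 of the 9 and 0 of all genes passed, with Tet2 at −1.17 (adjusted p = 0.059, limma), Mbd2 at −0.53 and Tet3 at 0.33. With the correction for GC content and length 0 passed as well, with Tet2 at −0.55 (adjusted p = 0.175, limma), Mbd2 at −1.01 (adjusted p = 0.131, limma) and Tet3 at 0.07. The count also rested on single libraries. It was 0 of the 9 without HT-Flx replicate 1 or 3, WT-Flx replicate 1, 2, 3 or 5, HT-Veh replicate 4 or 5, or WT-Veh replicate 2, 3 or 4. In those fits 0 to 3077 of all genes passed, against 4852 with all 20 libraries. Without HT-Veh replicate 1, 7 of the 9 passed, together with 7667 of all genes. Of the other DNA methylation genes, 11 had a positive and 7 a negative interaction, led by Hells (−1.37), Zbtb33 (−1.18), Ogt (−1.02), Zbtb38 (−0.86), Trim28 (0.82), Cdca7l (−0.79), Cxxc5 (0.75) and Mbd3 (0.71), and 0 did with the correction or without the 2 libraries that go against their labels.

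For each of the 9 genes, the other genes whose log2 values ran most alike over the 30 libraries were listed by Pearson's r, among genes with a mean of at least 50. The libraries share groups, ages and base composition, so r describes these libraries, and r of the deviations from group means is given after it. Dnmt3a ran most like Fyn (r = 0.990, within groups 0.754) and Dpysl3 (0.989, 0.489). Tet1 ran most like Rgs5 (0.988, 0.879) and Igsf10 (0.987, 0.898). Uhrf1 was closest to Igfbpl1 (0.988, 0.759) and Lrrc3 (0.985, 0.800). Tet2 was closest to Nmt2 (0.983, 0.960) and Ivns1abp (0.982, 0.946), the highest within-group values of the 9. The closest genes to Tet3 were Coro2a and Atxn7l3b (0.972 each, within groups 0.754 and 0.634), and those to Mbd5 were Plcb1 (0.961, 0.924) and Gabrb1 (0.955, 0.902). Dnmt1, Mbd2 and Dnmt3b had the lowest values of r over the libraries. For Dnmt1 the closest were Rab31 (0.914, within groups 0.830) and Vps26b (0.912, 0.814), and for Mbd2 Gzf1 (0.910, 0.823) and Pcmt1 (0.909, 0.832). For Dnmt3b they were Ckap2 (0.870, 0.531) and Tmod3 (0.862, 0.474). Over the 28 libraries without the 2 that go against their labels, r of these 18 pairs ran from 0.872 to 0.991.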

How the data were processed

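Whole-brain RNA of 30 mice, in 6 groups of 5, was sequenced from TruSeq RNA v2 libraries. The deposited values are a normalized signal per gene, made by the authors with Salmon 1.1.0 and DESeq2 1.30.1 under R 4.1.1 (submitters' processing notes); strand use was not given in the sources used here, and read depth is unknown, so no counting intervals are given. Of 19737 identifiers, 19722 (99.92%) matched a symbol. In R 4.3.3, limma 3.58.1 with an intensity trend was fitted per comparison to log2(value + 1) of genes with a mean of at least 10 in its libraries, with Benjamini-Hochberg adjustment over all genes tested and a threshold of 0.05. Folds on this scale understate changes of low genes. Single values were compared by exact permutation. The GC and length correction subtracted, per library, the mean deviation of genes in each of 10 by 10 bins. The code was tested on simulated data. The text names the 9 genes, Arid1b, up to 8 other DNA methylation genes past the threshold per comparison by size, and the 2 genes most correlated with each member. The members and lists were chosen with earlier results of these data known. Alternatives were other pseudocounts, filters and scalings, a replicate block, no trend, 1 fit of all libraries, the correction, and leaving out libraries. Promoter sequences are from RefSeq, and gene positions from GENCODE (GRCm38).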

Additional observations from a re-analysis of the deposited data

Results flagged for a closer look

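One library stood apart within its group for 1 of the 9 genes. Uhrf1 in HT-Veh replicate 4 was at 27.3, below the other 4 HT-Veh libraries, with a gap above the 95% limit of Dixon's test. It was 1 of 54 combinations of gene and group examined, and chance gives about 1 in 20.

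For 3 of the 9 genes, against 27.3% of all genes tested, the difference between fluoxetine and vehicle itself differed between genotypes in the interaction term (limma). The values were −1.08 for Tet2, −0.54 for Mbd2 and 0.32 for Tet3 on the log2 scale, and none of the 3 passed with the correction for GC content and length or without replicate 2 of HT-Veh and of WT-Veh, whose Arid1b values go against their labels.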

How the results depend on the processing

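With 2 pseudocounts, no filter, median-of-ratios rescaling or no intensity trend, every gene kept its direction in all 9 comparisons, and calls were lost in the genotype by fluoxetine interaction alone, for Tet3 with no filter and with rescaling, and for Tet2, Mbd2 and Tet3 with no trend, which left 0 of the 9 genes. A minimum mean of 100 gave 5 of the 9 there. Of the 5 genes lower with age in both genotypes, all passed under every alternative that kept them and without any 1 library, Dnmt3b being below the minimum mean of 100. The cause of the other differences was not tested.

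The correction for GC content and length, alone and with the replicate block alike, turned the log2 change of Mbd2 and Mbd5 with age to −0.04 and 0.14 in WT and −0.08 and 0.03 in HT. It also turned Dnmt1 to 0.05 for genotype at P10, −0.02 for genotype at P120 with vehicle, −0.05 for fluoxetine in HT, 0.03 for fluoxetine in WT, −0.08 for HT-Flx against WT-Flx, −0.08 for the genotype by fluoxetine interaction and −0.06 for genotype by age. Mbd5 became 0.09 for genotype at P120 with vehicle and 0.03 for fluoxetine in HT, Tet1 −0.09 for fluoxetine in WT, and Mbd2 −0.03 for genotype by age. In HT-Flx against WT-Flx the correction left 6390 genes and 3 of the 9 (5233 and 3 with the block), and in the interaction 0 and 0 (0 and 0 with the block). One fit of all 30 libraries called 0 genes for genotype at P10, 5948 genes and 4 of the 9 for fluoxetine in HT, and 7637 genes and 6 of the 9 in the interaction. Without both vehicle replicates 2, the interaction called 0 genes and 0 of the 9.

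In no comparison was every correlation between the deviations of same-numbered libraries over 0.1, so the numbers were not taken to pair mice. For fluoxetine in HT these correlations ran from −0.0177 to 0.407, with a mean of 0.179 against −0.0441 for differently numbered libraries, and 5 of the 10 libraries correlated best with their own number. With the replicate block, genes called for fluoxetine in HT went from 0 to 1355, with 1 of the 9 (Tet2, adjusted p = 0.033, limma), and for genotype at P10 from 4 to 7. With the correction and the block they were 2 and 8. The block also ended the calls of Mbd5 with age in HT and of Tet3 in the interaction.

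With each library left out in turn, genes called ran from 3 to 8 for genotype at P10 (8 without P10-HT replicate 1), 0 to 1 for genotype at P120 with vehicle (1 without HT-Veh or WT-Veh replicate 3), 0 to 1 for fluoxetine in HT (1 without HT-Flx replicate 2 or HT-Veh replicate 3), 0 to 1400 for fluoxetine in WT (1400 without WT-Veh replicate 1, 624 without replicate 5), 0 to 7667 in the interaction (7667 without HT-Veh replicate 1), with 0 to 7 of the 9, and 0 to 1 for genotype by age (1 without HT-Veh replicate 3). Log2 changes that crossed 0 were those of Dnmt1 with age in HT (−0.08 to 0.01), Dnmt1 (−0.04 to 0.01) and Dnmt3b (−0.03 to 0.21) for genotype at P10, and Dnmt3b in the interaction (−0.28 to 0.13). For genotype at P120 with vehicle they were Dnmt1 (−0.07 to 0.07), Mbd2 (−0.19 to 0.07), Dnmt3b (−0.43 to 0.05), Tet3 (−0.02 to 0.11), Mbd5 (−0.18 to 0.11), Tet2 (−0.49 to 0.07) and Tet1 (−0.57 to 0.06). For genotype by age they were Dnmt1 (−0.06 to 0.08), Mbd2 (−0.01 to 0.26), Tet3 (−0.02 to 0.11) and Tet1 (−0.57 to 0.06). In HT-Flx against WT-Flx the 7 genes called passed without any 1 library. Uhrf1 also passed there without HT-Flx replicate 5 (0.67, adjusted p = 0.022, limma) or WT-Flx replicate 5 (0.64, adjusted p = 0.0388, limma) and in 1 fit of all 30 libraries (0.53, adjusted p = 0.0395, limma), and Dnmt3b without HT-Flx replicate 3 (−0.72, adjusted p = 0.0293, limma).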
